A study of Mus musculus with 2 samples.

Results

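Capillary endothelial cells line the smallest blood vessels and can pass fatty acids from blood to tissue. Here they were picked from 2 mouse single-cell RNA libraries by their transcript counts. The rule used the sum of Timp4 and Gpihbp1, so a cell could lack 1 of them, and 66.5% of those picked from the injured library had no Timp4 count. Kept cells had no fewer than 500 genes detected, and mitochondrial counts of no more than 10%. It was called vascular endothelial with 3 or more counts of Pecam1 and Cdh5 together, at most 1 of the lymphatic gene Prox1 and at most 1 of the leukocyte gene Ptprc. Cells with over 2 counts of the arterial genes Gja5 and Sema3g, or over 2 of the venular genes Ackr1 and Selp, were set aside. A capillary cell was one of the remainder with 5 or more counts of Timp4 and Gpihbp1 together. This rule gave 1685 capillary cells of 14126 kept cells, 406 in the injured and 1279 in the uninjured library. Counts are unique molecular identifiers (UMIs), each standing for 1 captured RNA molecule.

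Capillaries of muscle, heart and fat take up lipid from lipoproteins. GPIHBP1 on the capillary wall holds lipoprotein lipase (LPL), the enzyme that frees fatty acids from triglyceride. CD36 is a fatty acid translocase, and the small carriers FABP4 and FABP5 bind fatty acids inside the cell. The transcription factors TCF15 and MEOX2 drive this uptake programme in heart endothelium. After injury, new capillaries sprout from existing vessels, and sprouting endothelium is known for PLVAP, a protein of the diaphragms that bridge small openings in the vessel wall, and for the apelin receptor APLNR.

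The tissue was the soft tissue behind the tibia, from the origin to the insertion of the Achilles tendon, in male and female mice aged 8 to 12 weeks with 5 mice per group. One library was made from injured tissue, collected on day 7 after burn injury and tenotomy (cutting of the tendon). The other came from the contralateral uninjured limb of mice given the same procedure, so it was not tissue of untreated animals. Mice of both groups had 1 CreERT2 allele of Hoxa11 (Hoxa11 wt/CreERT2), 1 Cre-dependent rtTA allele at the R26 locus (R26 wt/LSL-rtTA) and the TetO-Vegfd transgene. By this design Cre made in the Hoxa11 lineage of the limb can, once induced, switch on rtTA and, through it, the lymphatic growth factor Vegfd. Cells of control genotype were not analysed here, and the sources used here give neither how the transgene was induced nor whether a library pooled several mice. With 1 library per group there was no replicate and no test was possible, so intervals below are 95% intervals of counting error and do not cover variation between mice.

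The injured library held 10691 barcodes and the uninjured library 6850, where the protocol aimed for 2000 to 6000 cells per channel. The median capillary cell had 25066 UMIs in the injured and 14700 in the uninjured library, with 13972790 and 25530906 UMIs summed over capillary cells. Of the barcode sequences, 19 occurred in both libraries, 3 of them in a capillary cell of 1 library and 0 in capillary cells of both. Tendon genes marked the mesenchymal cells of both libraries, where Scx stood at 123 CPM (UMIs per 1000000 UMIs of the class) in the injured and 126 CPM in the uninjured library. Fmod and Tnmd were lower in the injured mesenchymal cells, Fmod at 223 CPM against 889 CPM and Tnmd at 260.5 CPM against 480 CPM. Vegfd was at 191 CPM in injured and 64.9 CPM in uninjured mesenchymal cells, and at 3.94 and 1.02 CPM in capillary cells. Markers of other cell types were present in capillary cells at unequal levels. The 6 mesenchymal markers summed to 4673 CPM in the injured and 853 CPM in the uninjured cells, with a median per cell of 377 and 155 CPM. The 4 haemoglobin genes summed to 143 and 4118 CPM, and the 8 mural markers to 731 and 1692 CPM, led by Rgs5 at 362 and 1316 CPM. The 7 leukocyte markers summed to 171 and 43.9 CPM. Of the 8 adipocyte markers, Cidec, Lep and Retn were at 0 in injured capillary cells, and the list summed to 1.29 CPM there and 9.40 CPM in uninjured cells. The part these levels play in the results was not tested.

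Capillary cells took up less of the injured library by all 4 denominators used. They were 4.335% (3.93 to 4.77) of kept injured cells and 26.9% (25.6 to 28.2) of kept uninjured cells. Leukocytes, gated on their own markers, filled 45.1% of injured and 10.8% of uninjured kept cells, so shares were also taken outside that gate, where capillary cells were 7.89% (7.17 to 8.66) and 30.1% (28.8 to 31.5). Among vascular endothelial cells alone they were 28.1% (25.8 to 30.5) of 1446 injured and 60.6% (58.5 to 62.7) of 2110 uninjured cells. Among endothelial cells with neither arterial nor venular markers they were 58.8% (55.0 to 62.5) and 79.3% (77.3 to 81.3). The intervals did not overlap in any of these pairs, but all 4 pairs hold the same capillary cells and are not separate results. Cells with venular markers went the other way, at 38.45% (35.9 to 41.0) of injured and 10.5% (9.24 to 11.9) of uninjured vascular endothelial cells. Cells with arterial markers held 13.7% and 13.0%, with overlapping intervals. A further 285 injured and 333 uninjured vascular endothelial cells had neither kind of marker and under 5 counts of Timp4 and Gpihbp1. The endothelial gene Kdr was at 68.5 and 77.1 CPM in these, against 457 and 756 CPM in capillary cells. Whether all of them were endothelial was not tested. Since Timp4 and Gpihbp1 chose the cells, a share can differ through fewer cells or through less of either transcript per cell. The limit of 2 counts of Ackr1 and Selp also set cells aside, from 1248 to 691 injured and from 1834 to 1612 uninjured cells. All limits are fixed counts, and depth differed between the libraries. With every cell thinned to 5000 UMIs before the rule, capillary cells were 25.35% of injured and 66.4% of uninjured vascular endothelial cells. The part of each was not tested.

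**Figure D1:**
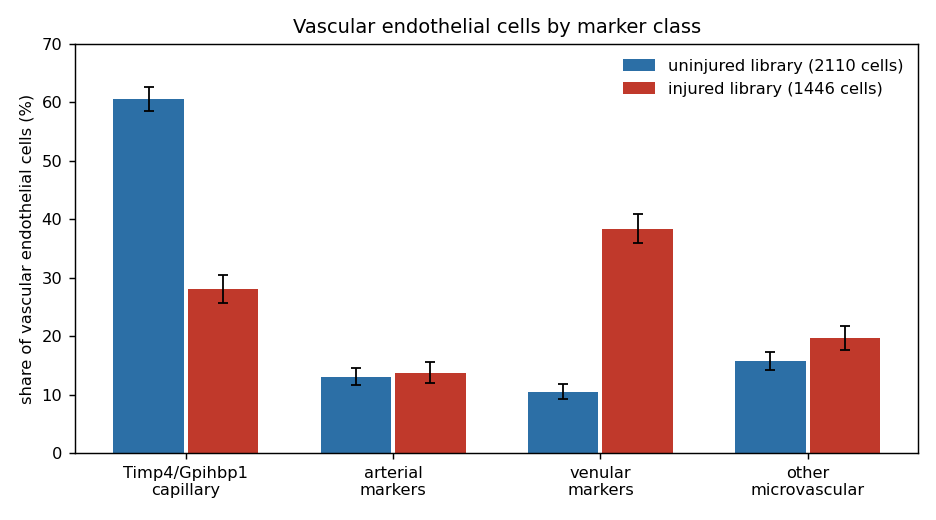
Share of vascular endothelial cells (%, vertical axis) in each marker class, in the uninjured (blue) and injured (red) library; bars are shares and error bars are exact 95% binomial intervals for counting error. The capillary bar stands at 60.6% in the uninjured and 28.1% in the injured library, while the venular bar stands at 10.5% and 38.45%.

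The label names 5 genes, of which Timp4 and Gpihbp1 belong to the rule and are described only. Timp4 (chromosome 6, 115241892 to 115252205, minus strand, mm10), an inhibitor of matrix metalloproteinases, was at 981 CPM in uninjured and 139 CPM in injured capillary cells. Gpihbp1 (chromosome 15, 75596628 to 75599481, plus strand) was at 1591 and 921 CPM. In the uninjured library 96.0% (94.8 to 97.0) of capillary cells had a Timp4 UMI, and in the injured library 33.5% (28.9 to 38.3) had one. Gpihbp1 alone carried most cells of both libraries over the threshold, since 98.0% of injured and 92.8% of uninjured capillary cells had 5 or more of its UMIs. The 270 injured cells without a Timp4 UMI outnumbered the 136 with one, and in the uninjured library the counts were 51 and 1228. At the edge of the rule, 10 injured and 29 uninjured cells had exactly 5 counts of both genes together, and 21 and 26 otherwise eligible cells had 4 and stayed outside. The median capillary cell had 28 counts of both genes together in the injured and 38 in the uninjured library.

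The other 3 genes of the label, which the rule did not use, were present in capillary cells of both libraries and lower in the injured one. Cd36 (chromosome 5, 17781690 to 17888801, minus strand) was at 2820 CPM in uninjured and 1045 CPM in injured cells, a ratio of 0.371 (0.364 to 0.377). Aqp1, a water channel (chromosome 6, 55336432 to 55348555, plus strand), was at 2231 and 612 CPM, a ratio of 0.274 (0.268 to 0.281). Fabp4 (chromosome 3, 10204088 to 10208576, minus strand) was at 16652 and 9364 CPM, a ratio of 0.562 (0.559 to 0.566). None of the 3 was particular to the capillary cells. In arterial cells Cd36 was at 2690 CPM in the uninjured and 1043 CPM in the injured library, and in venular cells at 1439 and 695 CPM. Venular cells carried Aqp1 at 2170 and 1175 CPM. Mesenchymal cells, which should lack Cd36, had 10.2 and 4.15 CPM. To compare detection at equal depth, each cell was thinned to 5000 UMIs, which left out 14 injured and 133 uninjured capillary cells. Cd36 was then detected in 98.9% of uninjured and 87.0% of injured capillary cells, against 3.64% and 1.55% of mesenchymal cells. Aqp1 was detected in 91.45% and 64.8%, against 7.09% and 7.855%. Of the genes the rule did not use, Cd36, Fabp4 and Aqp1 were thus present in both libraries. Of the rule's own genes, Timp4 was missing from most injured cells, and the presence of Gpihbp1 was fixed by the choice of cells. The cells are called capillary cells below by the rule that chose them.

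**Figure D2:**
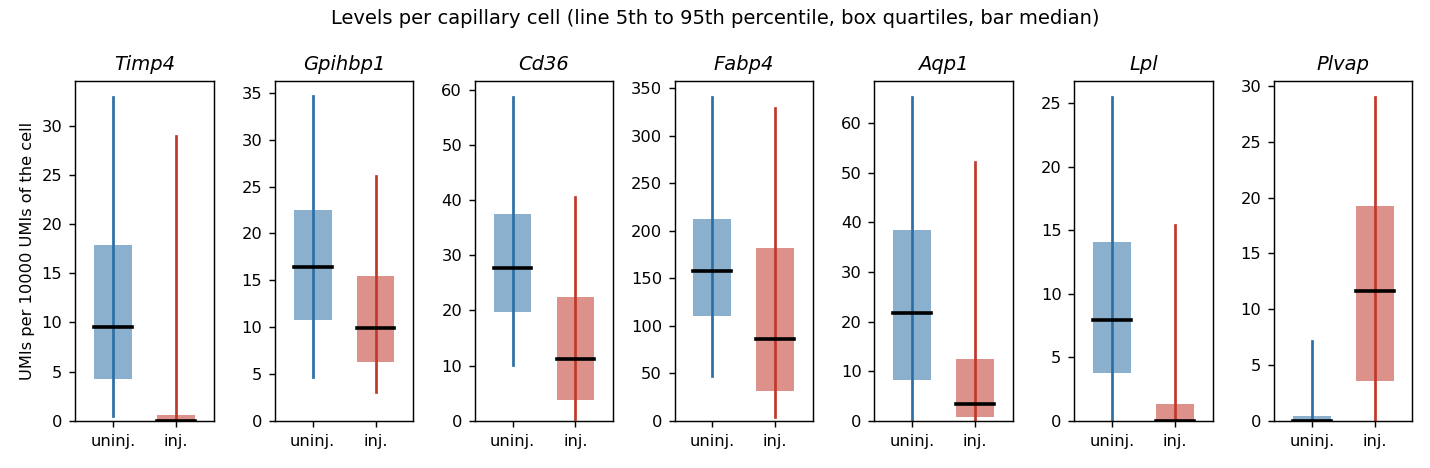
UMIs of 7 genes per 10000 UMIs of a capillary cell (vertical axis, a scale of its own in each panel) in the uninjured (1279 cells, blue) and injured library (406 cells, red); lines span the 5th to 95th percentile, boxes the quartiles, and black bars the median. The median of Timp4 and of Lpl is 0 in injured cells, and the median of Plvap is 0 in uninjured and 11.6 in injured cells.

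Injured capillary cells with and without Timp4 differed in other genes. Per 10000 UMIs, the median injured cell had 0 Timp4 and 0 Lpl, and the upper quartile was 0.616 for Timp4 and 1.30 for Lpl. The 95th percentile was 28.9 for Timp4, near the 32.9 of uninjured cells. After thinning, 86 injured cells had a Timp4 UMI and 306 did not. Lpl was detected in 83.7% (74.2 to 90.8) of injured cells with Timp4 and in 11.4% (8.10 to 15.55) of those without. Plvap was the reverse, detected in 36.05% (25.97 to 47.1) of cells with Timp4 and 96.1% (93.25 to 98.0) of those without. Lrg1, a secreted glycoprotein abundant in venules, was detected in 26.7% and 68.3%. Uninjured cells with a Timp4 UMI, 1023 after thinning, had Lpl in 89.7% (87.7 to 91.5) and Plvap in 17.1% (14.85 to 19.6). The 123 thinned uninjured cells without Timp4 had Lpl in 62.6% (53.4 to 71.2) and Plvap in 39.0% (30.4 to 48.2). Timp4 belongs to the rule, but this split was made after thinning, so a cell without a Timp4 UMI here could have had one before. Before thinning, 270 injured and 51 uninjured capillary cells had none, and only those entered through Gpihbp1 alone. These shares describe 2 libraries with no test between them.

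**Figure D3:**
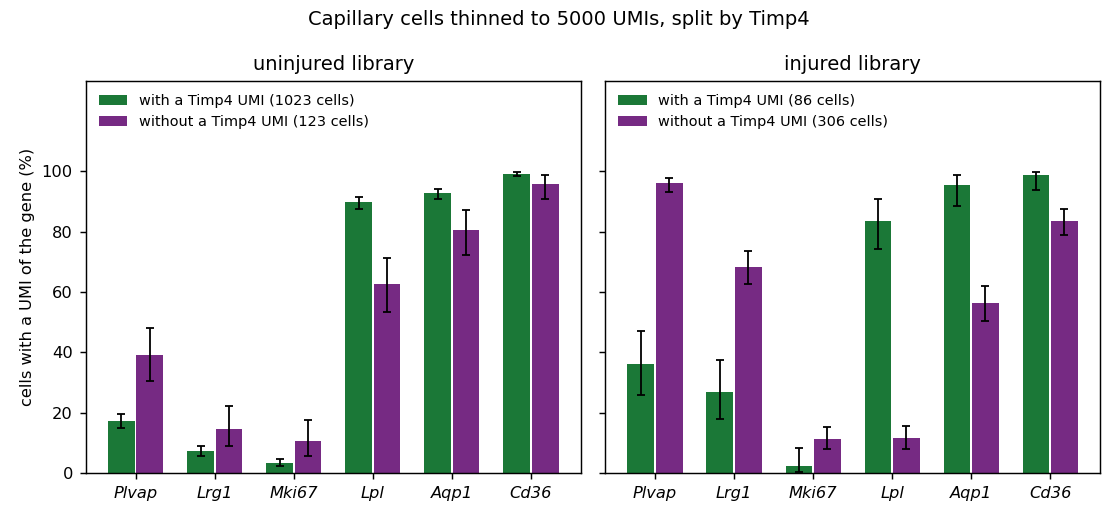
Share of capillary cells with a UMI of each gene (%, vertical axis) after thinning to 5000 UMIs, in cells with (green) and without (purple) a Timp4 UMI, for the uninjured (left) and injured library (right); error bars are exact 95% binomial intervals for counting error. In the injured library Plvap is in 96.1% of cells without Timp4 and Lpl in 11.4% of them.

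Lipoprotein lipase and Plvap also divided the injured cells without reference to Timp4. Of 325 thinned injured cells with Plvap, 14.8% (11.1 to 19.1) had Lpl, and of 67 without Plvap, 88.1% (77.8 to 94.7) had it. In the uninjured library 67.7% of 223 cells with Plvap and 91.4% of 923 without it had Lpl. The proliferation gene Mki67 was detected in 10.8% (7.62 to 14.7) of injured cells with Plvap and in 1 of 67 without. The latter share was 1.49% (0.0378 to 8.04), so the intervals overlapped and the lower share rested on 1 cell. In the uninjured library the shares were 5.38% (2.81 to 9.21) with Plvap and 3.68% (2.56 to 5.11) without, with overlapping intervals. Mki67 was detected in 10.5% of injured mesenchymal cells at the same thinned depth. By summed counts, Cd36, Fabp4 and Lpl in injured cells with a Timp4 UMI lay between the other injured cells and the uninjured cells with Timp4, while Scarb1, at 595 CPM, was above both (481 and 413 CPM). Cd36 was at 1908 CPM in injured cells with Timp4, 731 CPM in injured cells without it and 2866 CPM in uninjured cells with it. Fabp4 was at 16148, 6899 and 16858 CPM in the same order, so injured and uninjured cells with Timp4 differed by a log2 ratio of -0.06.

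Across genes, UMIs were summed over capillary cells of each library, and log2 ratios of injured over uninjured were taken after adding 5 CPM to each side. A gene was counted if it averaged 10 CPM or more over both libraries and, in the library where capillary cells were higher, reached 0.2 of its level in the highest other cell class. Of 8240 genes counted, 263 were over 2-fold higher in injured capillary cells (3.19%) and 368 over 2-fold lower (4.47%), with a median log2 ratio of -0.01. Of the 12 highest genes reaching 50 CPM, 11 are described next, with the 12 lowest. With cells having over 1% of UMIs from other cell types' markers removed, 251 genes were higher and 356 lower. Between the cells of both libraries that had a Timp4 UMI, 136 injured and 1228 uninjured, 160 genes were higher and 98 lower. The genes counted were redrawn for each of these sets of cells, so 8240 is not their denominator.

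Vessel-wall, matrix and signalling genes had the highest ratios outside skin genes. Plvap (chromosome 8, 71497765 to 71511752, minus strand) was at 1320 CPM in injured and 166 CPM in uninjured capillary cells, 7.94-fold higher (7.68 to 8.21). Lrg1 was at 399 and 39.4 CPM, 10.1-fold higher (9.46 to 10.8). Col18a1, the collagen of basement membranes whose fragment is endostatin, was at 431 and 48.6 CPM, 8.86-fold higher (8.33 to 9.42). The level of Plvap was not confined to capillary cells, since venular cells had it at 1498 CPM in the injured and 1732 CPM in the uninjured library.

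Tacr1, the receptor of substance P, was at 89.8 CPM in injured and 1.76 CPM in uninjured capillary cells. Cd276, an immune checkpoint ligand, was at 77.2 and 4.90 CPM, and Akr1b8, an aldo-keto reductase, at 51.6 and 2.00 CPM. Fam167b was at 244 and 29.6 CPM. All 7 of these genes were also over 2-fold higher in injured arterial cells. They were so too in injured capillary cells with a Timp4 UMI, which are part of the pool on which the genes were chosen. In venular cells 5 of the 7 were over 2-fold higher, the exceptions being Plvap and Lrg1. In venular cells these had log2 ratios of -0.21 and -0.07, where the capillary values were 2.95 and 3.19 and the arterial values 2.89 and 3.07. After thinning, Plvap was detected in 82.9% of injured and 19.5% of uninjured capillary cells, 77.8% and 16.2% of arterial cells, and 95.01% and 95.6% of venular cells.

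The other 4 of the 11 highest genes described were genes of skin keratinocytes, Krt16, Krt6b, Sprr1b and Flg, with 0 UMIs in uninjured capillary cells. Krt16 was at 370.2 CPM in injured capillary cells, but 1 cell held 5004 of its 5173 UMIs. Likewise 1 cell held 2478 of 2496 UMIs of Krt6b, 1796 of 1952 of Sprr1b and 813 of 816 of Flg. A keratinocyte gate found 147 cells in the injured and 0 in the uninjured library, and 3 of the 4 keratinocyte markers were at 0 in uninjured capillary cells. With cells rich in other types' markers removed, the log2 ratio of Krt16 was 0.75 in place of 6.23. No fold is given for these 4 genes.

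The genes lowest in injured capillary cells included the lipase itself. Lpl (chromosome 8, 68880491 to 68907448, plus strand) was at 870 CPM in uninjured and 110.0 CPM in injured cells, a ratio of 0.126 (0.120 to 0.133). It was at 364 CPM in injured cells with a Timp4 UMI and 17.7 CPM in those without, both below the 894 CPM of uninjured cells with Timp4. Mesenchymal cells also carried Lpl, at 506 CPM in the uninjured and 119 CPM in the injured library. Clic5, a chloride intracellular channel protein tied to the cell cortex (chromosome 17, 44188584 to 44280172, plus strand), was at 581 and 73.0 CPM in uninjured and injured capillary cells. Car8, a carbonic anhydrase-related protein (chromosome 4, 8143362 to 8239041, minus strand), had the lowest log2 ratio at -3.17, with 178 and 15.3 CPM. Bmp6, a bone morphogenetic protein, was at 240 and 38.3 CPM.

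The rest of this group held enzymes, channels and regulators. Fmo1 and Fmo2, flavin-containing monooxygenases, were at 156 and 267 CPM in uninjured and 22.9 and 43.7 CPM in injured capillary cells. Adh1, an alcohol dehydrogenase that acts on retinol, was at 114 and 17.75 CPM. Klf12, Trpm3, Tmtc1, Dlg2 and Lnx1 had log2 ratios of -2.72, -2.60, -2.50, -2.48 and -2.42. All 12 were lower in injured cells with a Timp4 UMI too, but by less, and 9 of them by over 2-fold, the exceptions being Bmp6, Fmo2 and Adh1. Those cells are part of the pool on which the 12 genes were chosen. All 12 were also lower in arterial and in venular cells, so their direction was shared by the 3 kinds of blood endothelium. The size differed for some. Bmp6 had a log2 ratio of -2.50 in capillary, -0.90 in arterial and -1.69 in venular cells, and Dlg2 one of -2.48, -1.86 and -0.31.

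**Figure D4:**
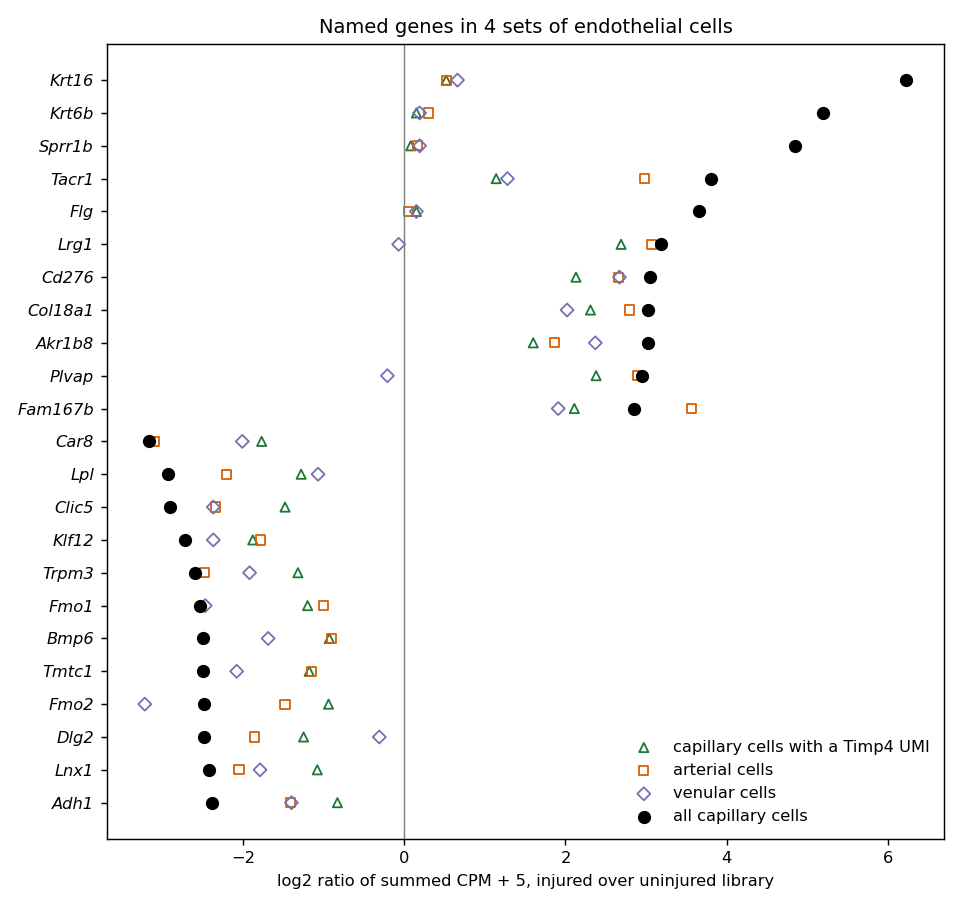
Log2 ratio of injured over uninjured summed CPM with 5 CPM added (horizontal axis) for 11 of the highest and the 12 lowest genes (rows), in all capillary cells (black), capillary cells with a Timp4 UMI (green), arterial cells (orange) and venular cells (violet). Plvap and Lrg1 sit at 2.95 and 3.19 in capillary cells and at -0.21 and -0.07 in venular cells, and the 4 keratinocyte genes are high in the black points only.

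The lipid uptake and transport list did not move as 1 block. Of its 25 genes outside the rule, 17 were counted, 1 was over 2-fold higher, 3 were over 2-fold lower, and the median log2 ratio was -0.09 against -0.01 for all genes. The 3 lower genes were Lpl, Cd36 and Lipe, the hormone-sensitive lipase, at 124 CPM in uninjured and 51.4 CPM in injured cells. The higher gene was Plin2, a coat protein of lipid droplets, at 42.0 and 96.8 CPM. Fabp5 was at 1190 and 1441 CPM, a log2 ratio of 0.27 where Fabp4 had -0.83. The cholesterol exporter Abca1 was at 152 and 301 CPM, and the lipoprotein receptor Scarb1 at 414 and 512 CPM. Fabp5 had a log2 ratio of -0.52 in cells where Xist but no Y-linked transcript was seen (Xist-only cells) and 0.80 in cells where a Y-linked transcript but not Xist was seen (Y-only cells).

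Fatty acid oxidation genes were slightly higher as a list, with a median log2 ratio of 0.34 over 18 counted genes, though none of them passed 2-fold. Slc25a20, the carnitine carrier, had the highest ratio at 26.9 CPM in injured and 13.8 CPM in uninjured cells. Cpt1a, which commits fatty acids to the mitochondrion, was at 35.8 and 45.3 CPM. The 30 nuclear oxidative phosphorylation genes had a median of 0.27, with none past 2-fold. Glycolysis and hypoxia genes had 2 of 17 higher, Pkm at 359 CPM in injured and 163 CPM in uninjured cells and Gapdh at 1043 and 494 CPM. Bnip3 and Ankrd37, both hypoxia-response genes, were the 2 lower, with log2 ratios of -1.35 and -1.40.

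Regulators of the lipid programme were split as well, with 2 of 11 counted genes higher and 3 lower. Tcf15 was at 350.5 CPM in uninjured and 65.0 CPM in injured capillary cells, and was detected in 76.8% and 26.3% of cells after thinning. Its partner Meox2 was at 150 and 84.0 CPM, and the fatty acid-activated receptor Pparg at 198 and 182 CPM. Insr, the insulin receptor, was at 43.0 CPM in uninjured and 148 CPM in injured cells. In venular cells Insr was at 320 and 264 CPM. Angptl4, a secreted inhibitor of lipoprotein lipase, was at 29.85 and 74.6 CPM. Flt1 and Nrp1, receptors for VEGF-B among other ligands, were the other lower genes, Flt1 at 2095 and 881 CPM and Nrp1 at 878 and 370 CPM.

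Capillary identity genes were lower as a list, with 9 of 19 over 2-fold lower, none higher and a median log2 ratio of -0.95. Aqp7, a glycerol channel, was at 181 CPM in uninjured and 34.5 CPM in injured cells, and Podxl, a sialomucin of the luminal surface, at 401 and 137 CPM. Rgcc was at 1359 and 553 CPM and Car4, a membrane-bound carbonic anhydrase, at 117.5 and 39.0 CPM. Emcn and Ramp2 differed little, at 505 and 653 CPM for Emcn and 733 and 737 CPM for Ramp2. In injured against uninjured cells with a Timp4 UMI the list median was -0.51, and in cells without one it was -0.45. The pooled median was lower than both, and the libraries held the 2 kinds of cell in different proportions. Here and below, cells without a Timp4 UMI were 270 injured at a median of 27946 UMIs and 51 uninjured at 10459 UMIs. Cells with one had medians of 17119 and 15140 UMIs, so the contrast without Timp4 rests on few and shallower uninjured cells. Arterial cells had a median of -0.51 on this list and venular cells -0.20.

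Angiogenic and tip cell genes were the list with most over 2-fold higher members, 7 of 19, with 1 lower and a median of 0.47. The median was 0.22 between the libraries' cells with a Timp4 UMI and 0.07 between those without one. Arterial cells had a median of 0.61 on this list and venular cells 0.88. Besides Plvap, the higher genes in capillary cells were Mest, Marcksl1, Aplnr, Esm1, Nid2 and Prcp. Mest, an imprinted gene of growing tissue, was at 679 CPM in injured and 91.4 CPM in uninjured cells. The actin regulator Marcksl1 was at 124 and 21.35 CPM, and Aplnr at 424 and 178 CPM, detected in 74.2% and 42.5% of thinned cells. Esm1, a tip cell proteoglycan, was at 32.4 and 10.9 CPM, and its log2 ratio of 1.24 became -0.25 within cells with a Timp4 UMI and -0.22 within cells without one. Unc5b, a netrin receptor, was the lower gene at 16.25 and 54.4 CPM. Dll4, the tip cell Notch ligand, was at 68.3 and 99.8 CPM.

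Of the VEGF receptors, Kdr (VEGFR2) was at 756 CPM in uninjured and 457 CPM in injured capillary cells. Flt4 (VEGFR3), the receptor that VEGF-D shares with VEGF-C, was at 50.3 and 32.1 CPM, where lymphatic cells had 371 and 398 CPM. Of 14 genes of the flow response and caveolae list, 8 were over 2-fold lower and 2 higher, with a median of -1.19. Klf2 and Klf4, transcription factors induced by laminar flow, were at 1223 and 668 CPM in uninjured and 303 and 126 CPM in injured cells. The caveolar coat genes Cav1, Cavin1 and Cavin2 were at 2493, 937 and 1336 CPM in uninjured and 1091, 346 and 379 CPM in injured cells. Ehd4 and the protein C receptor gene Procr were the 2 higher. On the same list arterial cells had a median of -1.07 and venular cells -0.79.

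In the BMP and TGF-beta list 4 of 13 were over 2-fold lower and 1 higher, with a median of -0.63. Bmp6 and the feedback genes Smad6, Smad7 and Id1 were the lower ones, with Smad7 at 176.5 CPM in uninjured and 51.0 CPM in injured cells. Tgfbr2 was the higher one at 88.7 and 228 CPM. Of 10 Notch genes, Jag2, Hey1 and Hes1 were over 2-fold lower and none was higher. Cxcl12, a chemokine of arterial and capillary endothelium, was at 2024 and 553 CPM. In the junction and barrier list 3 of 14 were lower, namely Ptprb, the phosphatase of VE-cadherin and Tie2, Jam2 and the sphingosine 1-phosphate receptor S1pr1. Cldn5 was at 231 and 260 CPM and Esam at 655 and 656.5 CPM.

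Interferon response genes were lower in injured capillary cells, with 9 of 22 over 2-fold lower, none higher, and a median of -0.88. Iigp1 was at 576 CPM in uninjured and 227 CPM in injured cells, and Ifit1 at 89.4 and 26.05 CPM. In antigen presentation 1 of 9, B2m, was over 2-fold lower, and all 9 log2 ratios lay between -1.09 and -0.34. Immediate early and stress genes, switched on quickly by many stimuli, had 9 of 21 lower, none higher and a median of -0.90. Egr1 was at 514 and 183 CPM and Dusp1 at 539 and 197.5 CPM. Within cells with a Timp4 UMI the medians were -0.47 for interferon, -0.32 for antigen presentation and -0.32 for immediate early genes. Of the 20 genes of the inflammatory list only 9 were counted, with a median of -0.51. Among them 1 was over 2-fold higher, Tnfaip2 at 32.8 and 88.5 CPM, and none was over 2-fold lower.

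**Figure D5:**
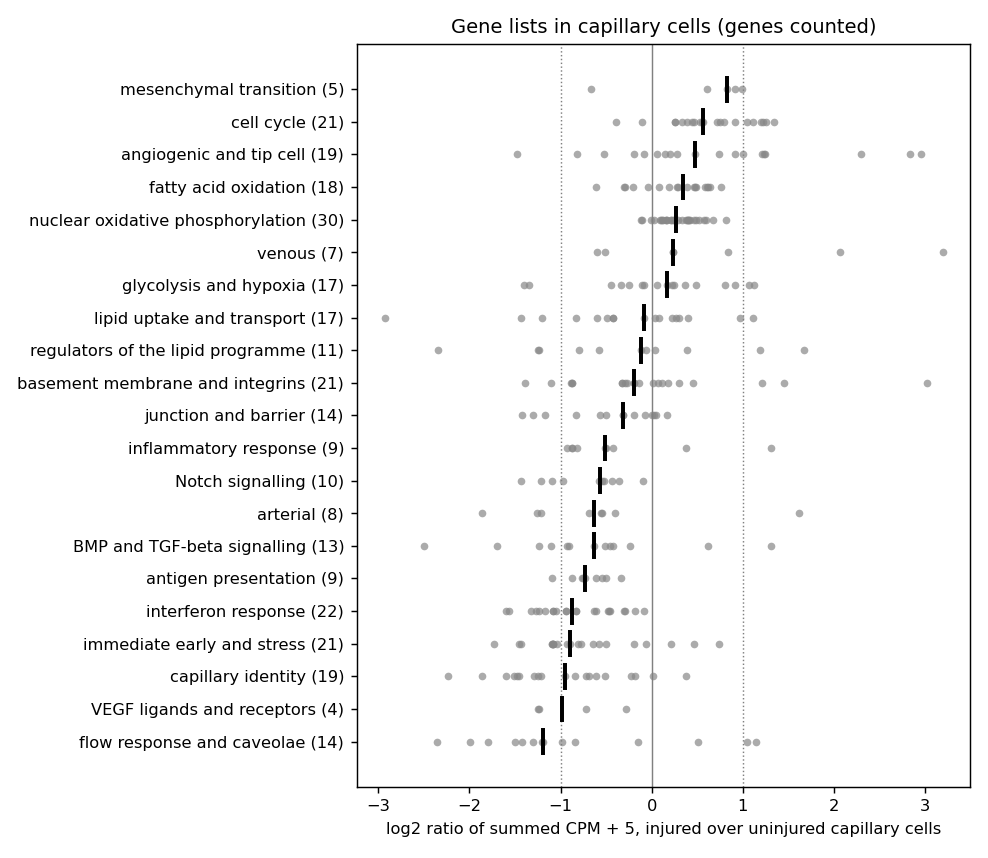
Log2 ratio of injured over uninjured summed CPM with 5 CPM added (horizontal axis) for the counted genes of each list (grey points, their number in brackets) with the list median (black bar); dotted lines mark 2-fold. Medians run from -1.19 for flow response and caveolae to 0.83 for the 5 mesenchymal transition genes, a median that was 0.01 between cells without a Timp4 UMI.

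Cell cycle genes were higher in summed counts, with 6 of 21 over 2-fold higher, none lower and a median log2 ratio of 0.56. Cdk1 was at 75.2 CPM in injured and 28.7 CPM in uninjured cells and Ube2c at 87.7 and 31.6 CPM, while Mki67 was at 39.7 and 43.2 CPM. Within cells with a Timp4 UMI the median was -0.08 and within cells without one -0.07. In the uninjured library 75 cells had a Mki67 UMI and 5 of them held 30.1% of its UMIs. After thinning, Mki67 was detected in 9.18% (6.515 to 12.5) of injured and 4.01% (2.95 to 5.32) of uninjured capillary cells, against 10.5% and 1.77% of mesenchymal cells, which also divide. Arterial and venular cells had cell cycle medians of 1.19 and 1.85.

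Basement membrane genes had 3 of 21 over 2-fold higher, Col18a1, Itgav and Nid2, and 2 lower, Itga1 and Lamb2. The main chains Col4a1 and Col4a2 were at 2611 and 1620 CPM in uninjured and 2364 and 1341 CPM in injured cells. Of the arterial list 8 genes were counted, Clu was higher, and Cxcl12, Sox17 and Hey1 were lower. On the venous list, Lrg1 and Tmem252 were the 2 higher of 7, with Tmem252 at 289 CPM in injured and 65.45 CPM in uninjured cells, and Nr2f2, the venous regulator, was at 140 and 119 CPM. The 5 counted mesenchymal transition genes had a median of 0.83 with none past 2-fold, and the median was 0.57 between cells with a Timp4 UMI and 0.01 between those without. Another 6 genes of that list were higher in another cell class and were not counted. Beside this list stand the mesenchymal markers above, also higher in injured capillary cells.

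Some genes set capillary cells apart from arterial and venular cells in both libraries, though the rule itself separates these classes and this is a description only. Trp53i11 was at 175 CPM in injured and 159 CPM in uninjured capillary cells, against 76.3 and 54.8 CPM in arterial and 75.3 and 36.95 CPM in venular cells. Fscn1, an actin-bundling protein, was at 279 and 200.3 CPM, against 177 and 111 CPM in arterial cells. Fabp5 was at least 0.66 higher on the log2 scale in capillary cells than in arterial or venular cells of the same library. Cells of both sexes contributed. The injured capillary cells held 181 Xist-only and 148 Y-only cells, and the uninjured ones 618 and 413. Within the first set capillary cells were 28.6% of injured and 63.65% of uninjured vascular endothelial cells, and within the second 28.7% and 56.3%. Of the 12 lower genes, 12 were over 2-fold lower in each set. The genes were chosen on the pooled capillary cells, which include both sets, so this is not separate evidence.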

How the data were processed

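The authors deposited 1 matrix per library of raw UMI counts, by gene and cell barcode, made with Cell Ranger 5.0.1 on mm10, per the file headers and the submitters' processing notes. The annotation release and cell calling are not stated in the sources used here. Barcode and gene lists were deposited with them. The members and gene lists were chosen with earlier results of these data known.

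For each library, UMIs were added up over the cells of a class and scaled to 1000000 (CPM). Shares have exact Clopper-Pearson and ratios exact conditional Poisson 95% intervals, for counting error only. Classes were gated on marker counts of 3 or 5 or more. The named genes were the 12 highest and 12 lowest log2 ratios among genes at 50 CPM or more in a library and 0.2 or more of the highest other class with 50 or more cells, without mitochondrial, ribosomal, haemoglobin, immunoglobulin, sex-linked, rule and unnamed genes, besides marker and list genes; 1 of the 12 highest is not reported here. Free RNA was not removed. Doublets were kept; removing Scrublet (scanpy 1.11.5) scores above 0.2 was an alternative. Coordinates are from GENCODE vM21. Thinning used random seed 1. The ratios of summed counts, their intervals and the thinning step were tested on simulated Poisson counts. The marker rule, classes, shares and list medians were not.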

Additional observations from a re-analysis of the deposited data

Results flagged for a closer look

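The cell cycle list went in opposite directions in capillary cells split by Xist and Y-linked transcripts. Its median log2 ratio, injured over uninjured capillary cells, was -0.21 among Xist-only cells (Xist but no Y-linked transcript seen) and 1.37 among Y-only cells (the reverse). The cells came from 1 library per group, and the difference was not tested. Cells with 3 or more UMIs of Mki67, Top2a, Cdk1, Birc5 and Ube2c together made up 21.0% (15.3 to 27.7) of injured Xist-only cells against 7.77% (5.78 to 10.2) of uninjured ones. In Y-only cells the shares were 27.0% (20.1 to 34.9) and 4.12% (2.42 to 6.51), so these shares were higher in the injured library in both sets. They were not thinned, and the median depth was 23200 and 17500 UMIs in the Xist-only cells and 25159 and 16561 UMIs in the Y-only cells. The sex of a cell was read from these transcripts only. Both kinds were seen in 14.0% of injured and 3.99% of uninjured capillary cells, and neither kind in 4.93% and 15.4%. Those cells are in neither set.

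Barcodes with over 10% mitochondrial UMIs were outside every comparison. Of these, 4 of 534 in the injured and 94 of 1123 in the uninjured library met the marker rule of the capillary cells.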

How the results depend on the processing

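No paired analysis was possible because each group had 1 library and the labels give no replicate numbers, and no library could be left out. The difference in capillary share of kept cells, -22.53 points (injured minus uninjured), kept its sign under all 13 alternatives, as did that of vascular endothelial cells, -32.54 points. With the mitochondrial limit at 5% they were -25.91 and -37.42 points, and at 20% the first was -19.97. With 10 or more counts of Timp4 and Gpihbp1 they were -20.11 and -29.31, and with 5 or more of Gpihbp1 alone -20.69 and -28.73. With 3 or more of Timp4 alone the second was -46.51, and with thinning before the rule -41.07. Removing cells with 3 or more counts of mural and collagen genes left 40 injured and 598 uninjured capillary cells and gave -37.0 and -39.4. Removing cells with over 1% other-type markers gave -33.54 for the first, Xist-only cells gave -20.43 for the first, and Y-only cells gave -27.53 for the second.

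The set of genes counted was redrawn for each alternative. The counts of 263 higher and 368 lower genes became 121 and 217 at 50 CPM or more, 147 and 228 with 20 CPM added, and 160 and 98 in cells with a Timp4 UMI. Higher genes numbered 404 without the limit on other classes and 404 in Y-only cells. Lower genes numbered 199 after thinning before the rule and 233 by the mean of per-cell CPM. The median of the lipid list, -0.09, was 0.03 without a filter on low values, -0.25 at 10 or more counts, -0.28 by the mean of per-cell CPM, -0.39 in Xist-only cells and -0.43 without cells rich in other types' markers. The cell cycle median, 0.56, was -0.60 without cells rich in mural and collagen genes, -0.21 in Xist-only cells, -0.08 with and -0.07 without a Timp4 UMI, and Esm1, at 1.24, was -0.25 and -0.22 in the latter 2. Alternatives by Timp4 UMI, Timp4 or Gpihbp1 alone and the 1% limit were chosen after seeing the data. The causes were not tested. Median-of-ratios scaling gave 255 and 383 genes. Detection of genes near 1 UMI per cell is limited by depth, which was lower in uninjured cells.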
